A study of Mus musculus with 12 samples.

Results

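Signalling from the interferon receptor through STAT and IRF factors was followed in 9 genes, which were the receptor chains Ifnar1 and Ifnar2, the kinase Jak1, the transcription factors Stat2, Irf9, Irf1, Irf3 and Irf7, and the inhibitor Socs1. They were taken by symbol from a table of 36875 gene symbols, and all 9 were found. All 9 also passed the filter on low counts, which left 15049 genes for testing. Poly(A) RNA of fibroblast-like synoviocytes grown from mouse joints, where they form the connective tissue of the lining, was sequenced in 12 libraries in 3 groups of 4. The resolution group (DOX OFF) came from animals whose course of 1 mg/ml doxycycline in 5% sucrose water was stopped after 3 weeks. The inflammation group (DOX ON) came from animals on that course for 3 weeks, and the homeostasis group (WT) from animals that drank 5% sucrose water alone for 3 weeks. The labels name mice with TNF-induced arthritis as the source for all 3 groups, and the series set out to learn how activated synoviocytes impair endothelium once inflammation resolves. The sources used here give neither the transgene with its promoter, nor whether the groups share a genotype, nor strain, age, sex or the time since withdrawal. Nothing in them ties the 4 libraries of a group to different animals or cultures, and p-values therefore measure only the spread between libraries, which may be technical.

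Type I interferons bind a receptor built from the IFNAR1 and IFNAR2 chains, and the attached kinases TYK2 and JAK1 then phosphorylate STAT factors. STAT2 acts with IRF9 in the complex ISGF3, which binds the interferon-stimulated response element (ISRE) of target genes, whereas the gamma-activated site (GAS) serves interferon gamma signalling. IRF3 and IRF7 switch on the interferon genes after sensing of nucleic acids, and IRF7 is itself an interferon target. Human rheumatoid synovial fibroblasts are known to make interferon beta after exposure to TNF and to respond to it.

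Irf7, Stat2 and Irf9 were higher in both doxycycline-treated groups than in homeostasis. The fitted fold of resolution over homeostasis was 18.6 for Irf7, 3.57 for Stat2 and 2.18 for Irf9. Jak1 and Ifnar2 were higher in resolution than in homeostasis by smaller factors of 1.92 and 1.30, and Irf1 was lower in inflammation than in homeostasis. Irf3 and Socs1 passed the test in no comparison. A gene passed where its Benjamini-Hochberg adjusted p, over all 15049 genes in the quasi-likelihood test of edgeR, was under 0.05. By this rule 4 of the 9 genes passed in inflammation against homeostasis, 3 higher and 1 lower, where 37.2% of all genes passed (19.0% higher and 18.3% lower). In resolution against homeostasis 6 passed, 5 higher and 1 lower, where 53.3% of all genes passed (27.5% higher and 25.8% lower). In resolution against inflammation 1 passed as higher, Jak1, where 16.2% of all genes passed (8.52% higher and 7.64% lower). Deviations of same-numbered resolution and inflammation libraries had an r from 0.13 to 0.21, and those of different numbers reached 0.20. Whether the numbers mark pairs is therefore not settled. In a fit to these 2 groups alone 3 of the 9 genes passed as higher, where 1623 of 14739 genes passed as higher and 1444 as lower. With a block by library number added, 4 passed as higher, Jak1, Ifnar2, Irf1 and Irf7, where 4808 of 14739 genes passed, 2585 higher and 2223 lower. The libraries of inflammation lay wholly above those of homeostasis for 3 of the 9 genes and wholly below for 1, beside 18.1% and 17.3% of all genes. Those of resolution lay wholly above homeostasis for 5 and below for none, beside 21.9% and 21.6%, and wholly above inflammation for 3 and below for none, beside 8.94% and 9.91%. The counts that passed in either direction lie near the shares over all genes and are no result about the 9 genes. Those in the higher direction lie above them in both comparisons with homeostasis, which was not tested. In resolution against inflammation the 1 gene of 9 lies near the share of 8.52% and is no result about the 9 genes. The genes were chosen with earlier results of these data known. The median log2 fold change of the 9 genes was 0.27, 0.38 and 0.11 in these comparisons, in the order given, beside -0.01, -0.01 and 0.02 over all genes. The comparisons with homeostasis share its 4 libraries.

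**Figure D1:**
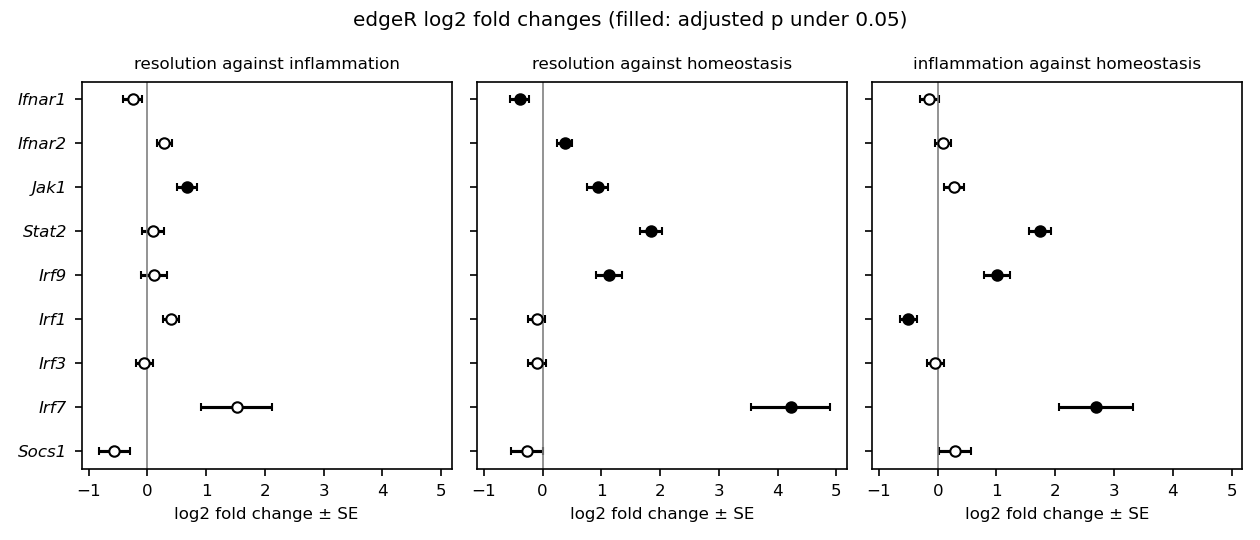
Fitted log2 fold change (x axis) of each of the 9 genes (rows) in 3 comparisons (panels), with bars for the standard error and filled points where the edgeR adjusted p was under 0.05. Irf7 lies farthest from 0 in every panel, and Irf3 lies within 0.09 of 0 in all of them.

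Libraries held 18120745 to 34971537 counts. Fibroblast markers were abundant in every library, with 12 of them summing to 11466.4 to 17048.1 CPM (counts scaled to the library total) in resolution, 22205.8 to 25716.3 in inflammation and 29809.6 to 32165.9 in homeostasis. The 15 macrophage markers summed to 64.6 to 73.3 CPM in resolution, 670.8 to 740.2 in inflammation and 122.6 to 161.2 in homeostasis, and none was at 0 throughout a group. The 8 chondrocyte markers summed to 106.2 to 148.4 CPM in resolution, 200.3 to 279.2 in inflammation and 1028.5 to 1321.0 in homeostasis. Single genes weighed heavily in these sums, as Col2a1 did at 827.6 CPM in homeostasis, and not every marker followed them. Of the 12 fibroblast markers 2 were higher and 8 lower in resolution than in homeostasis (27.5% and 25.8% of all genes). In inflammation 2 were higher and 5 lower (19.0% and 18.3%). Dcn averaged 896.7, 972.5 and 160.9 CPM in resolution, inflammation and homeostasis. Of the 15 macrophage markers, all 15 were higher in inflammation than in homeostasis (19.0% of all genes). In resolution none was higher and 10 were lower than in homeostasis (27.5% and 25.8%). Against inflammation none was higher and 14 were lower in resolution (8.52% and 7.64%). Ddx3y, a Y-linked gene, had no count in resolution, 3 counts in all of inflammation and 23.6 ± 1.82 CPM in homeostasis (SD, n = 4). Xist, which is made from the inactive X chromosome, averaged 174.0 ± 67.0 CPM in resolution, 110.3 ± 35.3 in inflammation and 10.8 ± 3.28 in homeostasis. No difference from homeostasis can therefore be told apart from a difference in the sex of the source animals. The same holds for doxycycline itself, which homeostasis alone did not receive, and for any genotype difference behind its WT label. Siglech, a marker of plasmacytoid dendritic cells, and the T cell markers Cd3e and Cd8a had no count in any library. Other members of these lists had counts, so such cells are not shown to be absent. The T cell marker Trac averaged 2.90, 5.53 and 2.19 CPM in resolution, inflammation and homeostasis. Dendritic cell markers differed from each other, with Itgax at 0.226, 1.05 and 0.236 CPM and Zbtb46 at 0.720, 0.803 and 1.43. Of 4 such markers tested, 2 were higher and none lower in inflammation than in homeostasis (19.0% and 18.3% of all genes). In resolution 1 was higher and 1 lower (27.5% and 25.8%). The part of the other cell types in the results was not tested, and in bulk RNA fewer cells of a type and less RNA per cell cannot be told apart.

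The promoters of Stat2, Irf9 and Irf7, which rose in both treated groups, and of Irf1, which was lower in inflammation, are shown with the motifs of the pathway. That of Socs1, which passed in no comparison, is shown for its matches alone. A window from 250 bases before to 50 bases after each gene's start was taken from RefSeq (GRCm38.p6), and all 9 genes had at least 1 window. These starts can differ from those of the gene coordinates given below, which are from GENCODE. Both Irf9 windows lie inside the GENCODE span of that gene, and the Stat2 window ends before its GENCODE start. On both strands the ISRE was searched as TTTC, any 2 bases and TTTC, and the GAS as TTC, any 3 bases and GAA, and the motifs may overlap. Of 32544 promoter windows of all genes, 3.45% held the ISRE letters and 8.33% the GAS letters. Capitals mark matches, and each sequence runs 5′ to 3′ along the strand of its gene.

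Stat2, chr10:128270248-128270547, plus strand: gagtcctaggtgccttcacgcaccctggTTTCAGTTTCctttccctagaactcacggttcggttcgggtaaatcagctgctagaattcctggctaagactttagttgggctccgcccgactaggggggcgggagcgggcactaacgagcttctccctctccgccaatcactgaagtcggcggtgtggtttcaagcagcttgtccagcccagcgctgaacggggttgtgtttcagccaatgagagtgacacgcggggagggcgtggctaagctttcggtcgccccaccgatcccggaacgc

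Irf9, chr14:55603735-55604034, plus strand: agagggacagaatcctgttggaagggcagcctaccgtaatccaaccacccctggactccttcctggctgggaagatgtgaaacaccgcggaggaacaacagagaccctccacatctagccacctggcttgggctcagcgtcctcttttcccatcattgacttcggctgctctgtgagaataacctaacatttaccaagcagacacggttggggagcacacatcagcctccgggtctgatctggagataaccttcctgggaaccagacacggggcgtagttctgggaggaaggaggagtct

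Irf7, chr7:141266375-141266674, minus strand: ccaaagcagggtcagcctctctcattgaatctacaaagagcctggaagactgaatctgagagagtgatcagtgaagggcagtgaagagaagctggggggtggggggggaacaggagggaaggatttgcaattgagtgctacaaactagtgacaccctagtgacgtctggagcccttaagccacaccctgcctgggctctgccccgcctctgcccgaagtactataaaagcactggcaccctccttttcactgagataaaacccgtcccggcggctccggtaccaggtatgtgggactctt

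Irf1, chr11:53769764-53770063, plus strand: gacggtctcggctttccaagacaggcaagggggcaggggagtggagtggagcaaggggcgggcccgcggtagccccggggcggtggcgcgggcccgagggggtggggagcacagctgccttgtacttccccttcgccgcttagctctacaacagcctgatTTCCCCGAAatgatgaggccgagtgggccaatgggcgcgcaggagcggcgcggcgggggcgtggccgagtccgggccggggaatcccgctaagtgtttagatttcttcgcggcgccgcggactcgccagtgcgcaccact

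Socs1, chr16:10785487-10785786, minus strand: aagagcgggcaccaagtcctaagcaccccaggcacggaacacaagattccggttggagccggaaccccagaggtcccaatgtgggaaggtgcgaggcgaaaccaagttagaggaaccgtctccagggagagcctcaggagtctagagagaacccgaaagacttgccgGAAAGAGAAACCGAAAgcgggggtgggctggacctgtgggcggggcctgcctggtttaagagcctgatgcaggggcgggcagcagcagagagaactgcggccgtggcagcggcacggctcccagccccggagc

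The Stat2 window held 1 ISRE match, TTTCAGTTTC, which began 222 bases before the start. The Socs1 window held 2 ISRE matches on the strand opposite to the gene, GAAAGAGAAA and GAAACCGAAA, which share bases with each other. The Irf1 window shown held 1 GAS match, TTCCCCGAA, which began 90 bases before the start, and the other Irf1 window held neither motif. A GAS match stood across the start of Ifnar1 (TTCACGGAA) and 214 bases before that of Ifnar2 (TTCCTGGAA). In the Irf7 and Irf9 windows shown, as in the other Irf9 window and those of Irf3 and Jak1, neither set of letters was found, which says only that these letters are not in those windows.

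The receptor chains stand first in the pathway. Ifnar1, the low-affinity chain (chr16:91485238-91507441, plus strand, GRCm38), measured 124.4, 95.4, 120.4 and 130.9 CPM in resolution libraries 1 to 4, 114.5, 120.6, 136.8 and 190.0 in inflammation, and 171.0, 177.0, 142.7 and 127.3 in homeostasis. All 3 groups overlapped. Resolution was lower than homeostasis by a log2 fold change of -0.39 ± 0.16 (SE, adjusted p = 0.0477). This call was close to the threshold and was lost when any of 10 libraries was left out, namely homeostasis 1, 2 or 3, inflammation 1, 2 or 3, or any resolution library, with an adjusted p of up to 0.131. Against inflammation the value was -0.25 ± 0.16 (adjusted p = 0.285), and that of inflammation against homeostasis was -0.14 ± 0.16 (adjusted p = 0.533).

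Ifnar2, the high-affinity chain and the neighbour of Ifnar1 on the same chromosome (chr16:91372783-91405589, plus strand), measured 105.7, 109.2, 110.3 and 115.4 CPM in resolution, 87.0, 82.7, 86.8 and 103.5 in inflammation, and 68.5, 94.7, 92.8 and 83.0 in homeostasis. Every resolution library lay above every library of the other groups. Resolution exceeded homeostasis by a log2 fold change of 0.38 ± 0.13 (adjusted p = 0.0177). It was 0.29 without homeostasis library 1 (adjusted p = 0.0684) and 0.36 without resolution library 4 (adjusted p = 0.0504) or with no filter on low counts (adjusted p = 0.0602). Against inflammation it was 0.29 ± 0.13 with an adjusted p of 0.123, although no library overlapped, a separation that Irf7 and Irf1 also showed. With the replicate block in a fit to these 2 groups it was 0.28 (adjusted p = 0.0343). It passed in 2 of 20 alternative settings and not in the other 18, with an adjusted p of up to 0.323. Ifnar2 shares 315 exonic bases, or 9.5% of its exonic length, with Gm21970 on the same strand. Inflammation and homeostasis did not differ beyond their spread (0.09 ± 0.13, 95% interval -0.18 to 0.35, adjusted p = 0.630).

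Jak1, the kinase bound to IFNAR2 and to several other cytokine receptors (chr4:101152367-101265282, minus strand), measured 630.1, 383.6, 688.1 and 689.1 CPM in resolution, 345.9, 335.6, 383.1 and 434.0 in inflammation, and 356.6, 367.8, 273.9 and 246.9 in homeostasis. Resolution library 2 stood well below the other 3 of its group and overlapped inflammation, while all resolution libraries exceeded homeostasis. Resolution exceeded homeostasis by a log2 fold change of 0.94 ± 0.18 (adjusted p = 0.000171), a call that held in all 21 alternative settings. It exceeded inflammation by 0.67 ± 0.17 (adjusted p = 0.0132). The second call was lost without inflammation library 1 (0.63, adjusted p = 0.0539), inflammation 2 (0.61, 0.0601), resolution 3 (0.59, 0.0626) or resolution 4 (0.58, 0.0677). Inflammation exceeded homeostasis by 0.27 ± 0.17, which did not pass (adjusted p = 0.242). With homeostasis libraries 3 and 4 as the sole controls it was 0.55 and passed (adjusted p = 0.0371). It passed in 2 of 21 alternative settings and not in the other 19, with an adjusted p of up to 0.857.

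**Figure D2:**
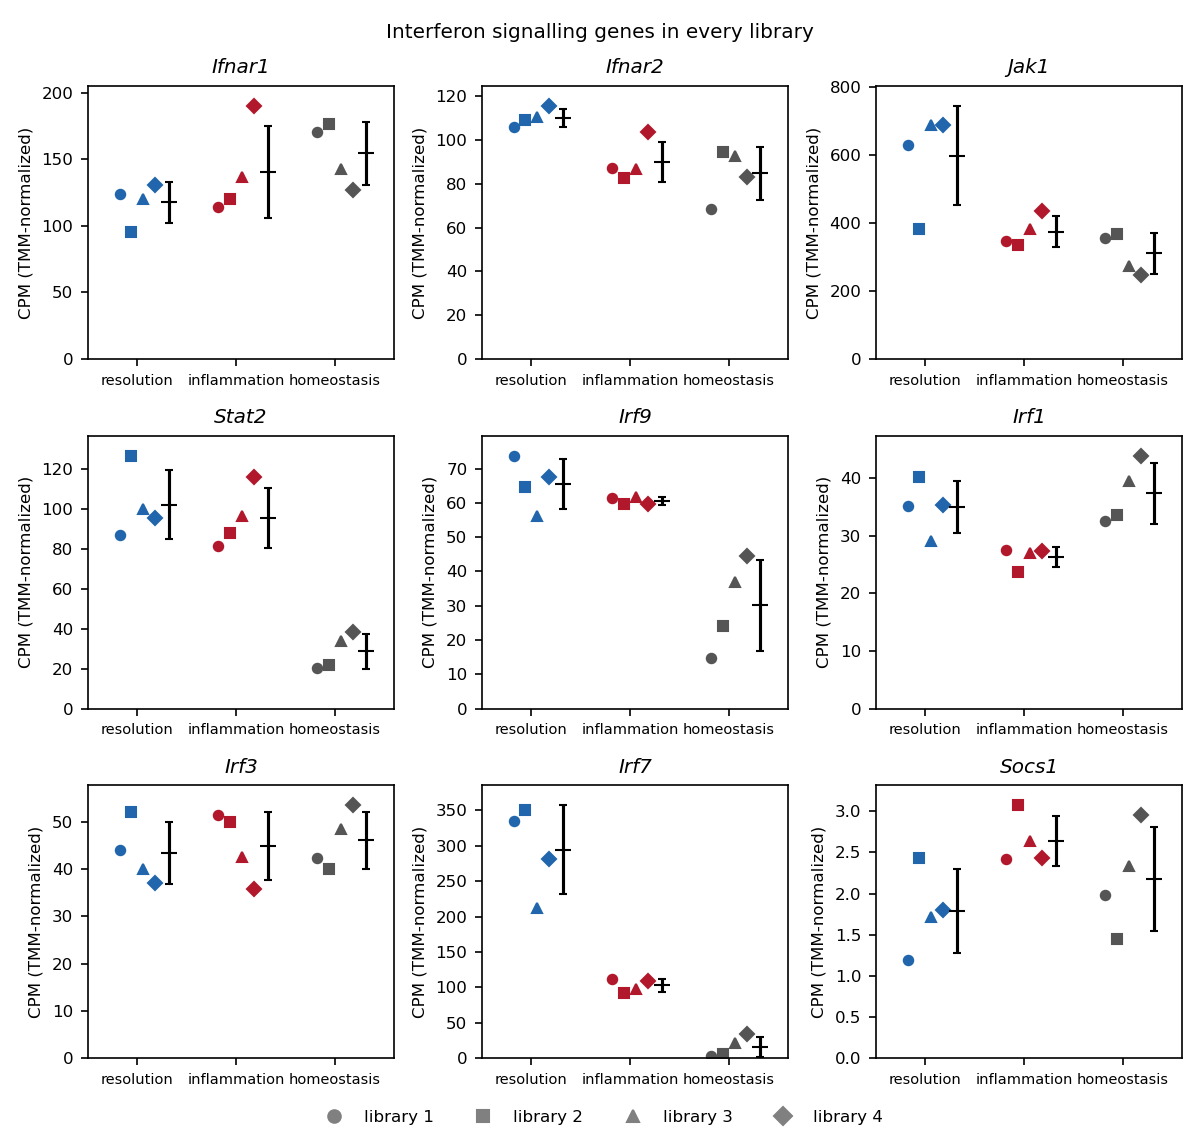
TMM-normalized CPM (y axis, linear and from 0) of the 9 genes in the 4 libraries of each group, with the mean and SD beside the points and marker shapes for the library number. The Irf7 libraries fall into 3 separate bands by group, the Stat2 and Irf9 libraries of homeostasis lie below all others, and the Irf3 libraries overlap between 35.8 and 53.4 CPM.

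STAT2 and IRF9 are subunits of ISGF3. Stat2 (chr10:128270559-128292849, plus strand), whose promoter window carries the ISRE match above, measured 86.8, 126.6, 100.1 and 95.3 CPM in resolution, 81.3, 87.9, 96.3 and 116.2 in inflammation, and 20.3, 21.9, 34.1 and 38.3 in homeostasis. The treated groups overlapped each other, and both lay wholly above homeostasis. On the log2 scale Stat2 rose by 1.84 ± 0.19 in resolution (adjusted p = 2.40e-07) and by 1.74 ± 0.19 in inflammation (adjusted p = 9.94e-07), each against homeostasis. Between resolution and inflammation it was 0.10 ± 0.19 (adjusted p = 0.738), with a 95% interval of -0.29 to 0.49.

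Irf9, the DNA-binding subunit of ISGF3 (chr14:55603571-55610030, plus strand), measured 73.7, 64.7, 56.2 and 67.6 CPM in resolution, 61.3, 59.6, 61.8 and 59.6 in inflammation, and 14.7, 24.2, 37.0 and 44.4 in homeostasis. The inflammation libraries lay within 1.04-fold of each other, whereas the homeostasis libraries spanned 3.02-fold and still stayed below both treated groups. Against homeostasis Irf9 rose by a log2 fold change of 1.13 ± 0.22 in resolution (adjusted p = 0.000324) and 1.01 ± 0.22 in inflammation (adjusted p = 0.00150). Resolution and inflammation differed by 0.11 ± 0.22 (adjusted p = 0.745), with an interval of -0.35 to 0.57. With homeostasis libraries 3 and 4 as the sole controls the values were 0.70 in resolution and 0.60 in inflammation, and with libraries 1 and 2 they were 1.73 and 1.63. Irf9 shares 123 exonic bases with Rnf31 on the same strand, so a part of its counts could belong to that gene.

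Irf7 (chr7:141262706-141266481, minus strand) showed the widest differences. Resolution libraries 1 to 4 held 6486, 7509, 4681 and 6074 counts, inflammation libraries 2441, 2233, 2008 and 2474, and homeostasis libraries 56, 178, 377 and 749. In normalized units these were 334.3, 350.7, 212.5 and 280.7 CPM in resolution, 111.5, 91.4, 98.3 and 109.3 in inflammation, and 2.84, 5.48, 21.5 and 33.9 in homeostasis. No library of any group overlapped another group. Of the 9 genes, Irf7 alone had every resolution library above every inflammation library and every inflammation library above every homeostasis library, an order that 476 genes, or 3.16% of those tested, showed.

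Irf7 rose on the log2 scale by 4.22 ± 0.67 in resolution (adjusted p = 0.000445) and 2.69 ± 0.63 in inflammation (adjusted p = 0.00779) against homeostasis. The homeostasis libraries spanned 11.9-fold, against 1.65-fold in resolution and 1.22-fold in inflammation, so the size of either difference depended on the controls. Without homeostasis library 4 the values were 4.92 in resolution and 3.42 in inflammation. With libraries 3 and 4 as the sole controls they were 3.42 and 1.91, and with libraries 1 and 2 they were 6.10 and 4.59. Resolution exceeded inflammation 2.87-fold, a log2 fold change of 1.52 ± 0.60 with an unadjusted p of 0.0291 and an adjusted p of 0.112. In a fit to these 2 groups alone the value was 1.51 (adjusted p = 1.43e-06), with the replicate block added 1.49 (adjusted p = 1.02e-09), and in the fit to all groups without homeostasis library 1 it was 1.51 (adjusted p = 0.0124). The difference passed in 5 of 20 alternative settings and did not pass in the other 15, with an adjusted p of up to 0.238. Irf7 shares 45 exonic bases with Phrf1 on the opposite strand, and no source used here says whether counting used strand.

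Irf1, a transcription factor that drives part of the interferon gamma response, moved differently. This gene (chr11:53770014-53778374, plus strand), which has the GAS match shown above, measured 35.2, 40.2, 29.1 and 35.4 CPM in resolution, 27.6, 23.8, 27.0 and 27.3 in inflammation, and 32.5, 33.7, 39.5 and 43.9 in homeostasis. Every inflammation library lay below every library of the other groups. Inflammation against homeostasis gave a log2 fold change of -0.50 ± 0.14 (adjusted p = 0.00967). It was -0.32 with homeostasis libraries 1 and 2 as the sole controls (adjusted p = 0.134). Resolution exceeded inflammation by 0.40 ± 0.14 (adjusted p = 0.0589), which did not pass here. It did in DESeq2 (0.40, adjusted p = 0.0325) and in a fit to these 2 groups alone (0.39, adjusted p = 0.0445). With the replicate block added to that fit the adjusted p was 0.0203 (0.39). This difference passed in 4 of 20 alternative settings and not in the other 16, with an adjusted p of up to 0.195. Resolution differed from homeostasis by -0.10 ± 0.14 (adjusted p = 0.590), with an interval of -0.39 to 0.20. Irf1 shares 135 exonic bases with Gm17334 on the opposite strand.

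Irf3, a factor present before any stimulus and activated by phosphorylation (chr7:44997648-45002848, plus strand), measured 43.9, 52.1, 40.0 and 37.0 CPM in resolution, 51.3, 49.8, 42.6 and 35.8 in inflammation, and 42.3, 40.0, 48.5 and 53.4 in homeostasis. All 3 groups overlapped. The log2 fold change was -0.05 in resolution against inflammation (interval -0.37 to 0.27, adjusted p = 0.838), -0.09 in resolution against homeostasis (-0.41 to 0.23, adjusted p = 0.645) and -0.04 in inflammation against homeostasis (-0.35 to 0.28, adjusted p = 0.875). Irf3 shares 88 exonic bases with Bcl2l12 on the opposite strand. The ratio of Irf7 to Irf3 CPM within a library had a median of 7.16 in resolution, 2.24 in inflammation and 0.290 in homeostasis, with ranges of 5.31 to 7.61, 1.83 to 3.05 and 0.0671 to 0.636.

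Socs1, which blocks JAK kinases and marks them for degradation (chr16:10782240-10785536, minus strand), was the least abundant of the 9 genes. It had 23, 52, 38 and 39 counts in resolution, 53, 75, 54 and 55 in inflammation, and 39, 47, 41 and 65 in homeostasis. These were 1.79 ± 0.509, 2.64 ± 0.304 and 2.18 ± 0.629 CPM in resolution, inflammation and homeostasis (SD, n = 4 each), and the groups overlapped. The log2 fold change was -0.56 ± 0.27 in resolution against inflammation (adjusted p = 0.158), -0.27 ± 0.27 in resolution against homeostasis (adjusted p = 0.421) and 0.29 ± 0.27 in inflammation against homeostasis (adjusted p = 0.412). The 95% interval of the first reached from -1.12 to 0.00.

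Levels of different genes were set side by side per kilobase of the longest coding transcript. The genes share their libraries, and differences between genes were not tested. In resolution Irf7 at 131.7 ± 27.9 and Jak1 at 121.8 ± 29.6 CPM per kilobase were the most abundant (SD, n = 4). Ifnar2 at 36.1 ± 1.32 and Ifnar1 at 30.1 ± 3.98 CPM per kilobase followed. Stat2, Irf9, Irf3 and Irf1 lay between 16.4 and 23.2 CPM per kilobase there, and Socs1 at 0.614. In inflammation Jak1 led at 76.4 ± 9.07, ahead of Irf7 at 45.9 ± 4.23 CPM per kilobase. In homeostasis Jak1 led at 63.5 ± 12.2 CPM per kilobase. Irf9 was there at 10.2 ± 4.47, Irf7 at 7.12 ± 6.51, Stat2 at 6.52 ± 2.02 and Socs1 at 0.749 ± 0.216.

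Across the 12 libraries the logarithms of Irf9 and Irf7 CPM had a Pearson r of 0.96, those of Stat2 and Irf7 0.94, and those of Stat2 and Irf9 0.92. Irf3 and Irf7 had an r of 0.02, and Jak1 and Socs1 -0.66. These values describe points that share their libraries and fall into 3 groups, so they carry no test. Among 10455 other genes with at least 5 CPM on average, Oasl1 and Zbp1, both interferon targets, had the highest r with Irf7, at 0.990 and 0.989. Whrn (0.991) and Adar (0.987) were most like Stat2, Gm9706 (0.986) and Isg15 (0.978) most like Irf9, and Riok3 (0.994) and Nrd1 (0.989) most like Jak1. The closest to Irf1 was Nipsnap1 at 0.929, to Irf3 Tbc1d17 at 0.945, to Socs1 Ndst2 at 0.971, to Ifnar1 Itga9 at 0.940 and to Ifnar2 Tor1aip1 at 0.927.

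**Figure D3:**
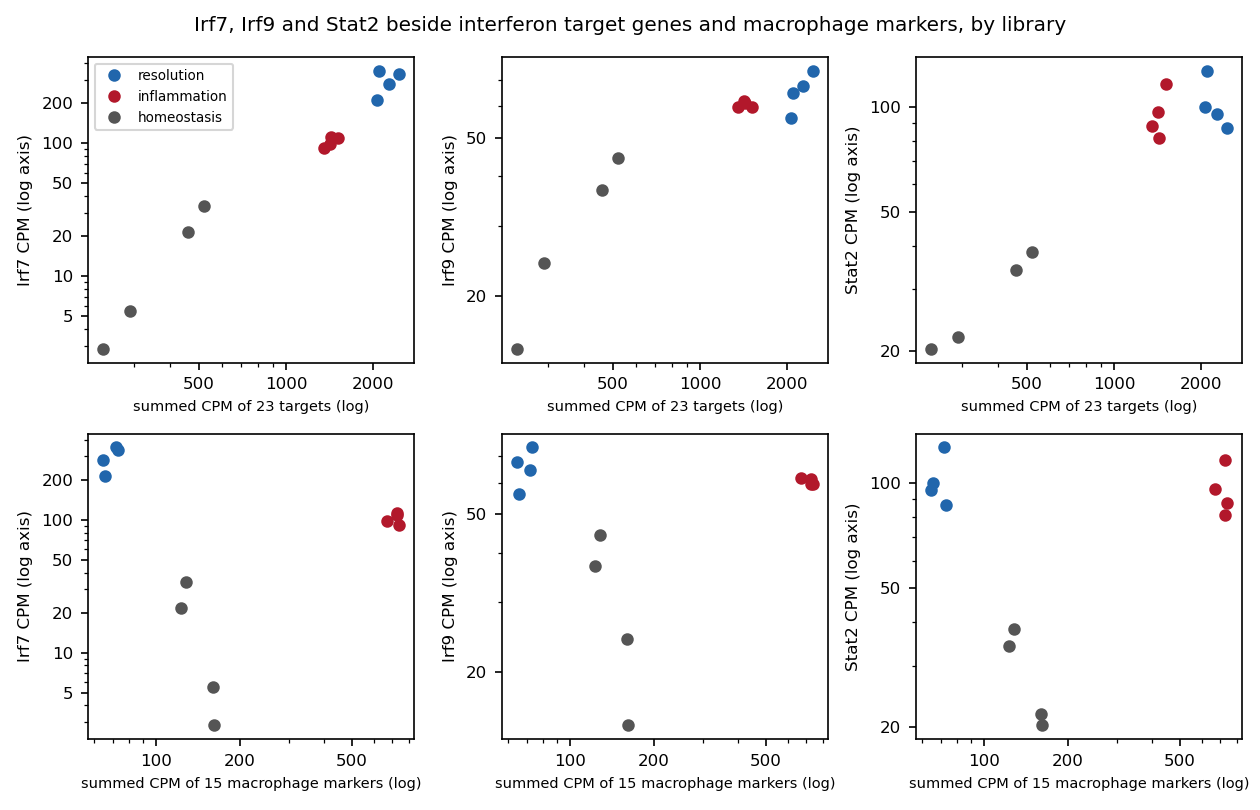
CPM of Irf7, Irf9 and Stat2 (y axes, log) in each library against the summed CPM of 23 interferon target genes (upper row) and 15 macrophage markers (lower row, x axes log), with points coloured by group. Along the target genes the homeostasis libraries run from 233.8 to 522.1 CPM and rank the same way for all 3 genes, whereas the inflammation libraries stand apart along the macrophage axis at 670.8 to 740.2 CPM.

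The summed level of 23 interferon target genes was 2059.7 to 2457.6 CPM in resolution, 1349.7 to 1510.6 in inflammation, and 233.8, 290.7, 461.0 and 522.1 in homeostasis libraries 1 to 4. Homeostasis libraries 3 and 4 thus had the higher level of Irf7, Irf9, Stat2 and these targets alike. The summed macrophage markers were 161.2, 160.1, 122.6 and 128.5 CPM in homeostasis libraries 1 to 4. Between groups their sum was lowest in resolution, where Irf7 was highest, and it was higher in inflammation than in homeostasis, as Irf7 was. The part of macrophages in the Irf7 difference was not tested. Of the 22 targets tested, 20 were higher and 1 lower in resolution than in homeostasis, beside 27.5% and 25.8% of all genes. In inflammation against homeostasis 18 were higher and 1 lower, beside 19.0% and 18.3%. In resolution against inflammation 9 were higher and none lower, beside 8.52% and 7.64%. With the replicate block in a fit to these 2 groups 17 targets were higher and none lower, beside 2585 and 2223 of 14739 genes. The median log2 fold changes of the targets were 3.06, 2.32 and 0.63 in these comparisons. Oas2, which makes the activator of RNase L, averaged 25.8 ± 2.36 CPM in resolution, 3.86 ± 0.428 in inflammation and 0.404 ± 0.422 in homeostasis. Ifih1, the RNA sensor MDA5, averaged 81.7 ± 16.1, 39.6 ± 4.94 and 7.90 ± 3.14 CPM in the same groups. Both rose in resolution against inflammation, by 2.74 (adjusted p = 1.54e-06) and 1.04 (adjusted p = 0.00226) on the log2 scale. The target that fell was the chemokine gene Cxcl10, at 1.35 ± 0.420 CPM in resolution, 1.95 ± 0.863 in inflammation and 3.41 ± 0.403 in homeostasis. It was lower than homeostasis in resolution by a log2 fold change of -1.33 (adjusted p = 0.00158) and in inflammation by -0.81 (adjusted p = 0.0433). The inflammation call was lost in 13 of 21 settings, 8 of them with 1 library left out (any homeostasis library, inflammation 2 or 3, or resolution 1 or 4), with an adjusted p of up to 0.157.

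Transcripts of the interferons themselves were close to the limit of detection. Of 21 interferon genes in the table, 8 had any count, none passed the filter, and all 12 libraries together held 92 counts, of which 30 were in resolution, 44 in inflammation and 18 in homeostasis. Ifnb1, the interferon beta gene, had 1, 0, 6 and 0 counts in resolution, 2, 0, 8 and 3 in inflammation and 0 in each homeostasis library. Where a library had no count, the level could still be as high as 0.0858 to 0.1656 CPM, depending on the library (3 counts of its total without TMM scaling, counting error only). Ifnz had 2 to 7 counts in resolution, 4 to 9 in inflammation and 3 to 6 in homeostasis, and Ifng, the interferon gamma gene, had none in any library.

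Of 6 other receptor and kinase genes tested, 1 was higher in resolution than in either other group and none lower, and in inflammation against homeostasis none was higher and 1 lower. Beside the shares of all genes given for the targets above, these counts are no result about the list. The gene that rose was Jak2, the kinase of the interferon gamma receptor, with 118.0 ± 27.5 CPM in resolution, 56.9 ± 8.52 in inflammation and 49.1 ± 4.20 in homeostasis. Its log2 fold change was 1.27 against homeostasis (adjusted p = 2.66e-06) and 1.05 against inflammation (adjusted p = 0.000135), beside 0.94 and 0.67 for Jak1. The gene that fell in inflammation was Il10rb (-0.35, adjusted p = 0.0403), the shared chain of the lambda interferon receptor, whose call was lost when any of 9 libraries was left out (homeostasis 1, 2, 3 or 4, inflammation 1, 2 or 3, resolution 1 or 4), with an adjusted p of up to 0.125. Ifnlr1, the specific chain of that receptor, did not pass the filter, with 65 counts over the resolution libraries, 13 over inflammation and 18 over homeostasis.

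Among 4 other STAT genes tested, Stat3, Stat5a and Stat6 passed as lower in both treated groups than in homeostasis, none was higher, and none passed in resolution against inflammation. Of all genes, 25.8% were lower in resolution and 18.3% in inflammation than in homeostasis, and 16.2% passed in resolution against inflammation. Stat3, a factor of interleukin-6 signalling, averaged 263.2 ± 24.0, 266.2 ± 30.5 and 345.7 ± 20.9 CPM in resolution, inflammation and homeostasis, with log2 fold changes of -0.39 (adjusted p = 0.0101) and -0.38 (adjusted p = 0.0196). The second of these was lost without homeostasis library 2 (-0.31, adjusted p = 0.0604), inflammation 1 (-0.30, 0.0880) or inflammation 2 (-0.33, 0.0823). Stat5a was at -0.41 in resolution (adjusted p = 0.0172) and -0.36 in inflammation (adjusted p = 0.0460). Its inflammation call was lost when any library other than resolution 2 was left out (adjusted p up to 0.167), and its resolution call without homeostasis 1 or resolution 1, 3 or 4 (up to 0.0602). Stat6 was at -0.35 in resolution (adjusted p = 0.0220) and -0.34 in inflammation (adjusted p = 0.0349). Its inflammation call was lost without homeostasis 3 or 4, any inflammation library, or resolution 1 or 4 (up to 0.108), and its resolution call without homeostasis 3 or 4 or resolution 3 or 4 (up to 0.0942). With offsets for GC content and transcript length the resolution values were -0.20 for Stat3 (adjusted p = 0.0682), -0.12 for Stat5a (0.410) and -0.01 for Stat6 (0.896), and with upper-quartile factors none of the inflammation calls remained (-0.30, 0.0621; -0.29, 0.122; -0.27, 0.112).

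Of 3 other IRF genes tested, Irf8 and Irf5 were higher and Irf2 was lower in inflammation than in homeostasis, beside 19.0% and 18.3% of all genes. Irf8, a factor of macrophages and other blood cells, averaged 0.505 ± 0.333 CPM in resolution, 1.86 ± 0.192 in inflammation and 0.284 ± 0.0740 in homeostasis. It was higher in inflammation than in homeostasis (log2 fold change 2.72, adjusted p = 7.42e-05) and lower in resolution than in inflammation (-1.87, adjusted p = 0.00370), and the summed macrophage markers were likewise highest in inflammation. Irf5, which acts in Toll-like receptor signalling, averaged 11.3 ± 0.651, 10.7 ± 1.05 and 7.64 ± 0.833 CPM in resolution, inflammation and homeostasis. Its log2 fold change was 0.57 in resolution (adjusted p = 0.00381) and 0.49 in inflammation (adjusted p = 0.0162), the second lost without inflammation library 3 (0.42, adjusted p = 0.0678). The fall of Irf2, an antagonist of IRF1, was -0.48 (adjusted p = 0.0249) and was lost without homeostasis library 2 (-0.34, 0.109) or inflammation 1 (-0.47, 0.0600), 2 (-0.42, 0.0918) or 3 (-0.49, 0.0545).

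Among 18 other negative regulators tested, 4 were higher and 5 lower in resolution than in homeostasis, beside 27.5% and 25.8% of all genes. In inflammation against homeostasis 3 were higher and 1 lower, beside 19.0% and 18.3%. In resolution against inflammation 2 were higher and 1 lower, beside 8.52% and 7.64%. With the replicate block in a fit to these 2 groups it was 4 and 2, beside 2585 and 2223 of 14739 genes. Such counts are no result about the list. Usp18, which displaces JAK1 from IFNAR2 and is an interferon target, averaged 135.7 ± 24.1 CPM in resolution, 125.0 ± 10.3 in inflammation and 8.89 ± 7.73 in homeostasis. Its log2 fold change was 3.95 in resolution (adjusted p = 0.000238) and 3.83 in inflammation (adjusted p = 0.000549). Ptpn1, a phosphatase of JAK2 and TYK2, was lower, at 52.1 ± 8.42, 65.0 ± 4.37 and 96.6 ± 9.11 CPM in resolution, inflammation and homeostasis (-0.89, adjusted p = 1.66e-05, and -0.57, adjusted p = 0.00225, against homeostasis). Ptpn6, a phosphatase mainly of blood cells, averaged 1.05 ± 0.400 CPM in resolution, 6.59 ± 2.05 in inflammation and 3.64 ± 1.40 in homeostasis, and was lower in resolution than in either (-2.65, adjusted p = 9.87e-06, against inflammation). Socs5 averaged 86.0 ± 16.3 CPM in resolution, 52.0 ± 9.71 in inflammation and 42.1 ± 11.9 in homeostasis, with a log2 fold change of 1.03 in resolution against homeostasis (adjusted p = 0.000174), beside -0.27 for Socs1.

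Of 13 genes that act in the activation of IRF3 and IRF7, 2 were higher and 2 lower in resolution than in homeostasis, beside 27.5% and 25.8% of all genes. As many passed in each direction in inflammation against homeostasis, beside 19.0% and 18.3%. None passed in resolution against inflammation, beside 16.2%. With the replicate block in a fit to these 2 groups 4 passed as higher, beside 2585 of 14739 genes. Such counts are no result about the list. The adaptor gene Azi2 averaged 48.9 ± 6.21 CPM in resolution, 37.5 ± 4.72 in inflammation and 28.6 ± 3.28 in homeostasis, with a log2 fold change of 0.77 in resolution against homeostasis (adjusted p = 0.000177). The adaptor gene Tank was at 0.68 there (adjusted p = 0.000138), a value that turned to -0.04 with offsets for GC content and transcript length (adjusted p = 0.780). Tmem173, which encodes the DNA-sensing adaptor STING, averaged 57.1 ± 8.09 CPM in resolution, 64.7 ± 2.51 in inflammation and 79.9 ± 14.3 in homeostasis, with a log2 fold change of -0.48 in resolution (adjusted p = 0.00700). This was -0.31 with homeostasis libraries 1 and 2 as the sole controls (adjusted p = 0.0988) and -0.23 with the GC and length offsets (adjusted p = 0.0980).

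**Figure D4:**
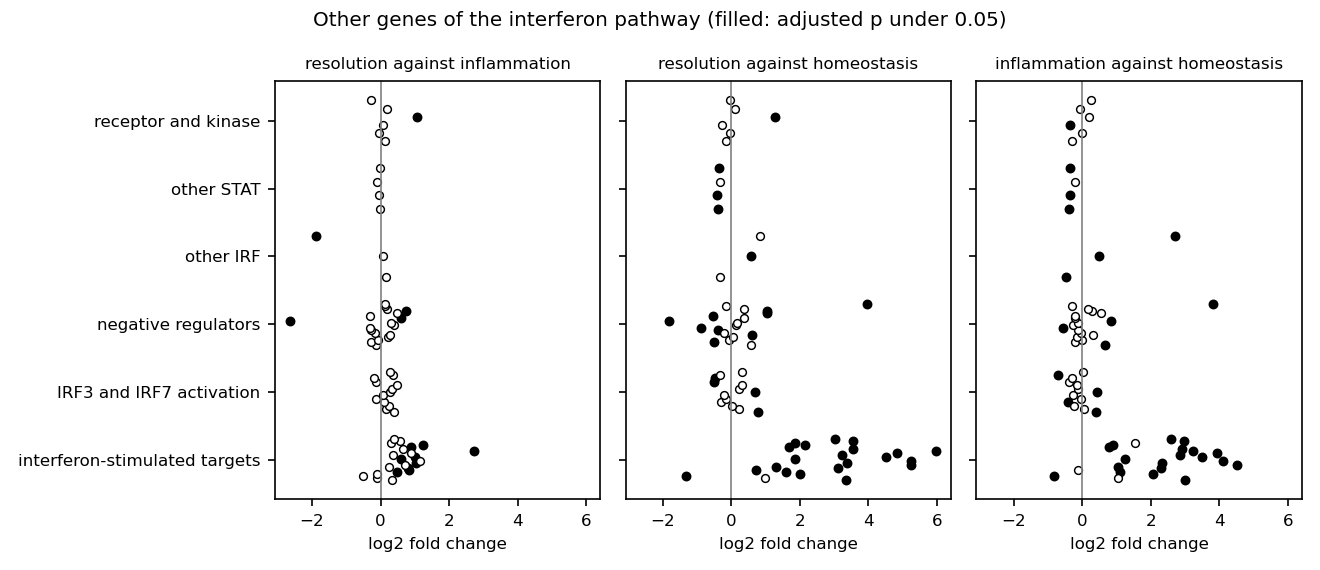
Fitted log2 fold change (x axis) of every tested gene in 6 lists of other interferon pathway genes (rows) in 3 comparisons (panels), filled where the edgeR adjusted p was under 0.05. In both comparisons with homeostasis the filled points of the interferon-stimulated targets lie to the right of 0 apart from Cxcl10. In the other STAT list 3 of 4 points are filled there, all to the left of 0. The remaining lists hold few filled points or some on either side.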

How the data were processed

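Poly(A) RNA of 12 libraries was sequenced with paired reads of 150 bases, per the labels' protocols. The table the authors deposited holds estimated counts, not normalized, for each symbol and library, and the submitters' processing notes name the build GRCm38.p3. No source used here names the aligner, counting tool, strand setting or annotation. From 36930 entries, 13 that held no value were dropped, and 42 that repeated 1 of 34 symbols were added to their partner. All values were rounded, since 1.43% of these deposited expected counts were fractional (tolerance 0), though none of the 9 genes' were.

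edgeR 4.0.16 (R 4.3.3) filtered genes by expression, scaled libraries with TMM and ran the quasi-likelihood F test in 1 fit of all libraries on group alone, and p-values were Benjamini-Hochberg adjusted over 15049 genes at a threshold of 0.05. The biological coefficient of variation was 18.6%. CPM are TMM-normalized, and correlations used log2 CPM with a prior count of 2. The test was run on simulated data first. No libraries of a group agreed within sampling noise. Deviations of same-numbered resolution and inflammation libraries had an r from 0.13 to 0.21 over 4 pairs, against -0.25 to 0.20 over 12 pairs of different numbers. These ranges overlap, so whether the numbers mark pairs is not settled by these values, nor by the labels. The homeostasis libraries did not deviate with the same numbers of resolution (-0.23 to 0) or inflammation (-0.21 to 0.08).

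The members, the pathway and marker lists and the tests were chosen with earlier results of these data known. In each list and comparison up to 4 called genes, by adjusted p, could be named, with every interferon gene that had a count and the 2 genes most like each member. Cxcl10 and Ifng were chosen after their values were seen. Mx1 and Mx2 were not matched and are not analysed here, and 1 other pathway gene and 1 marker gene are not reported here. Alternatives were RLE and upper-quartile factors, no filter, DESeq2 1.42.0, a replicate block, fits to 2 groups, leaving out each library, homeostasis libraries 1 and 2 or 3 and 4 as sole controls and, added after the data were seen, a replicate block in the fit to resolution and inflammation alone and offsets for GC content and length (known for 90.4% of tested genes). Coordinates of genes are from GENCODE on GRCm38.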

Additional observations from a re-analysis of the deposited data

Results flagged for a closer look

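Irf1 in inflammation library 2, at 23.8 CPM, lay far below the other 3 inflammation libraries, which held 27.6, 27.0 and 27.3 CPM. Its gap to the nearest of them was 0.860 of the range of the group, above Dixon's 95% critical value for 4 samples. Of 27 sets of 4 libraries examined (9 genes in 3 groups) this was the only 1 past that value, and chance passes it in about 1 in 20.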

How the results depend on the processing

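Over all alternatives, 505 of 558 fold changes of the 9 genes kept their direction and their side of the threshold, 23 lost a call, 14 gained one and 16, none of them called, changed sign. In resolution against inflammation the number of the 9 genes that passed was 1, and it was 2 with no filter, 3 in the fit to the 2 groups alone, 2 with DESeq2, 4 with GC and length offsets, 4 with the replicate block in a fit to the 2 groups, and 0 to 2 when single libraries were left out (0 without inflammation 1 or 2 or resolution 3 or 4, and 2 without homeostasis 1). Over all genes that comparison gave 2431 calls, and 1242 (without resolution 4) to 4191 (without resolution 2) with a library left out, and 4808 with that block. Its calls were 1282 higher and 1149 lower, but 1011 and 1318 with upper-quartile factors, 482 and 760 without resolution 4, and 2360 and 1831 without resolution 2. Calls of Irf7, Irf1, Ifnar2 and Jak1 gained with the offsets for GC content and length were 1.74 (adjusted p = 0.0359), 0.58 (0.000641) and 0.38 (0.0139) for Irf7, Irf1 and Ifnar2 in resolution against inflammation, and 0.27 (0.0336) and 0.32 (0.0351) for Ifnar2 and Jak1 in inflammation against homeostasis. The Ifnar1 call in resolution against homeostasis was lost in 15 of 21 settings.

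Signs changed as follows, and the cause was not tested. In inflammation against homeostasis, Ifnar1 was 0.08 with homeostasis 3 and 4 as sole controls and 0.04 with the offsets. Irf3 was 0.04 with upper-quartile factors, 0.00 in the fit to 2 groups, 0.13 with homeostasis 1 and 2 as sole controls, and -0.09 to 0.07 with a library left out (0.06 without homeostasis 4, 0.07 without inflammation 4). Tank was -0.08 with the offsets. In resolution against homeostasis, homeostasis 1 and 2 as sole controls gave 0.07 for Irf1, 0.06 for Irf3 and 0.07 for Socs1, and the offsets gave 0.19 for Irf1, 0.19 for Irf3, 0.08 for Socs1 and -0.04 for Tank. In resolution against inflammation, Stat2 was -0.02 (without resolution 2) to 0.20 with a library left out, and Irf3 was -0.16 to 0.01 (without inflammation 1), and 0.21 with the offsets.

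Of 47 calls of other pathway genes, Cxcl10 included, 26 held in every alternative and 21 were lost in at least 1. With a replicate block in the fit to all groups, 4, 5 and 1 of the 9 genes passed in inflammation and resolution against homeostasis and in resolution against inflammation, and Ifnar1 in resolution was the only call lost (adjusted p = 0.0626). In no comparison are the numbers shown to pair the libraries. Depth limits what can be said of the interferon genes, which had 0 to 9 counts each in a library.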
